A study of Mus musculus with 52 samples.

Results

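Spleens of NZB/W-F1 mice were compared between 6 months, when the animals had nephritic lupus, and 1 month, before puberty and without symptoms. NZB/W-F1 mice are hybrids of a New Zealand Black mother and a New Zealand White father and develop an autoimmune, lupus-like disease with age. The hybrids compared here are labelled female. The comparison used the 3 whole-spleen libraries titled as 6-month hybrids and the 3 titled as 1-month hybrids, 6 of the 52 libraries of the series and 6 of its 16 spleen libraries. The labels give each of the 6 animals the same hybrid genotype and name no added allele, transgene or treatment. Healthy female C57BL/6 spleens, 2 of 6 months and 3 of 1 month, served as the age-matched strain, and 3 hybrid and 2 C57BL/6 spleens of 3 months shared the estimate of spread in the fit. All animals were perfused with buffered saline before the organs were taken, and total RNA was sequenced. The study asked how expression changes in the organs as the disease appears.

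The spleen filters blood through its red pulp and holds B and T cells in its white pulp. When a B cell is activated it can enter a germinal centre, where it mutates its antibody genes and switches its heavy chain from IgM to IgG, IgA or IgE, and it can then become a plasma cell, which makes and secretes antibody. In lupus the antibodies include ones against nuclear antigens, and they deposit with complement in the kidney. The spleen of a young mouse is also a blood-forming organ, rich in red cell precursors and in early B cells.

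Values are read counts scaled by library size (CPM) on the deposited scale, in which the authors scaled each library by a trimmed-mean factor, and log2 fold changes are differences of log2(CPM + 0.5) given with their standard error (SE). A gene was called at a Benjamini-Hochberg adjusted p under 0.05 in limma, over all 15122 genes. The 6-month libraries held 11998550, 10189388 and 9207726 reads and the 1-month libraries 11616355, 11186982 and 6567769 reads, so that 3 reads in a library correspond to between 0.256 and 0.471 CPM. B cell, T cell and stromal markers of spleen were present in all 6 (Tlx1, needed for spleen formation, had 25.2, 16.2 and 27.8 CPM at 6 months, against 24.8, 28.2 and 26.2 CPM at 1 month). Replicates of a group differed by more than sampling noise (chi-square per gene of 13.1 to 89.5), so none was counted as a duplicate.

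Several libraries stood apart. In 6-month replicate 3, Xist, the RNA of the inactive X chromosome in female cells, had 1.44 CPM, against between 781 and 1712 CPM in the other 15 spleen libraries, and the kidney library of the same animal code had 1.38 CPM. This goes against the label, which gives a female, and the library is called by its label throughout. It also held 4839.8 CPM of pancreatic enzyme RNA, against between 12.8 and 21.3 CPM in the other 5 hybrid spleens of 6 and 1 months. Among the other groups in the fit, pancreatic enzyme RNA came to 197753 CPM in hybrid 3-month replicate 2, 50550.5 CPM in C57BL/6 1-month replicate 1 and 964 CPM in C57BL/6 1-month replicate 2. Counts of genes called in hybrid spleen, in all or by list, are given with all 3 older libraries and again without 6-month replicate 3. A named gene whose call between the ages in hybrids was lost without that library is pointed out. For the difference between the strains, lost calls are named only for genes with a lower change in hybrids. Without the 3 libraries with the most of this RNA, a choice made after seeing the data, 403 genes were called between the ages in hybrids.

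At 6 months 1914 genes differed from 1 month, which is 12.7% of those tested. Of these, 1214 (8.03% of all genes) were higher at 6 months and 700 (4.63%) were lower, and the median log2 fold change of all genes was 0.045. The groups did not overlap for 34% of genes, 19.7% with all 3 older spleens higher and 14.3% with all 3 lower. Without 6-month replicate 3 the calls numbered 438 higher (2.9%) and 53 lower (0.35%), and without 6-month replicate 2 they numbered 1659 higher (11%) and 1596 lower (10.6%). Without 1-month replicate 1, replicate 2 or replicate 3 they numbered 580, 762 and 1085 in all, and without 6-month replicate 1 they numbered 1103. edgeR's quasi-likelihood test on reads recovered from the values called 1168 higher (7.72%) and 453 lower (3%). A fit of only the 6 hybrid libraries of these ages called 702 higher and 185 lower. Counts of list members are to be set beside these shares. In whole-tissue RNA fewer cells of a type and less RNA per cell cannot be told apart, here or in any result that follows.

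Antibody genes had the largest rises. Of the 12 immunoglobulin constant genes, 9 rose and none fell, with a median log2 fold change of 3.09, and 9 were called without 6-month replicate 3. The largest was that of Ighg3, the constant gene of the IgG3 heavy chain (chr12:113356224-113361232, GRCm38). Ighg3 had 16749, 8063 and 4579.7 CPM at 6 months, against 199, 148 and 34.5 CPM at 1 month (log2 fold change 6.39 ± 0.57 SE, adjusted p = 2.16e-05). All 3 older spleens were far above all 3 younger ones, and among the older ones replicate 1 was highest. Ighg1, which encodes IgG1, had 5442, 2685 and 2006 CPM at 6 months, against 43.1, 119 and 10.05 CPM at 1 month (log2 fold change 6.34 ± 0.76 SE, adjusted p = 2.09e-04). The groups lay apart, with replicate 1 again the highest of the older spleens.

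Ighg2b had 2580.4, 2451 and 2860.5 CPM at 6 months, against 112, 136 and 63.4 CPM at 1 month (log2 fold change 4.73 ± 0.23 SE, adjusted p = 1.64e-07). Ighg2c, the gene that C57BL/6 mice and the reference genome carry where many other strains have Ighg2a, had 6487, 6378 and 6464 CPM at 6 months, against 280.5, 329 and 211 CPM at 1 month (log2 fold change 4.58 ± 0.32 SE, adjusted p = 4.67e-06). The 3 older spleens were nearly level for both genes, unlike Ighg3 and Ighg1, which varied between them. Reads were aligned to the C57BL/6 genome, so the level listed for Ighg2c in hybrids depends on how their own alleles align to it.

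Ighe, the gene of IgE, had 26.4, 6.68 and 7.97 CPM at 6 months, against 0.0904, 0.0897 and 0 CPM at 1 month. It had 2 reads in all at 1 month against 446 at 6 months, a ratio of depth-weighted levels of 210 (95% exact counting interval 57.8 to 1.74e+03). This interval covers counting error only, not the spread between animals. In limma the log2 fold change of Ighe was 4.40 ± 0.55 SE (adjusted p = 3.03e-04), with 1-month values below the added 0.5 CPM. Ighm, the gene of IgM, had 25177, 29611 and 41966 CPM at 6 months, against 5378, 5980.4 and 6782 CPM at 1 month (log2 fold change 2.39 ± 0.48 SE, adjusted p = 0.00752). Ighd, expressed with Ighm on naive B cells, had 579, 253 and 516 CPM at 6 months, against 311, 326 and 262 CPM at 1 month, and the groups overlapped (log2 fold change 0.50 ± 0.29 SE, adjusted p = 0.25). Igha had 1077, 861 and 1018 CPM at 6 months, against 59.6, 59.6 and 541 CPM at 1 month (log2 fold change 2.97 ± 0.60 SE, adjusted p = 0.00828). Its youngest group was uneven, with replicate 3 far above the other two 1-month spleens, and edgeR did not call it (adjusted p = 0.0509).

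Among light chains, the kappa gene Igkc had 38052, 31514 and 34849 CPM at 6 months, against 3192, 3977 and 4113 CPM at 1 month (log2 fold change 3.21 ± 0.36 SE, adjusted p = 1.16e-04). The lambda gene Iglc1 rose as well (log2 fold change 1.59 ± 0.32 SE), while Iglc2 (0.86 ± 0.31 SE, adjusted p = 0.0788) and Iglc3 (0.38 ± 0.32 SE, adjusted p = 0.456) were not called. The plot of constant genes by library shows the separation of the ages gene by gene.

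**Figure D1:**
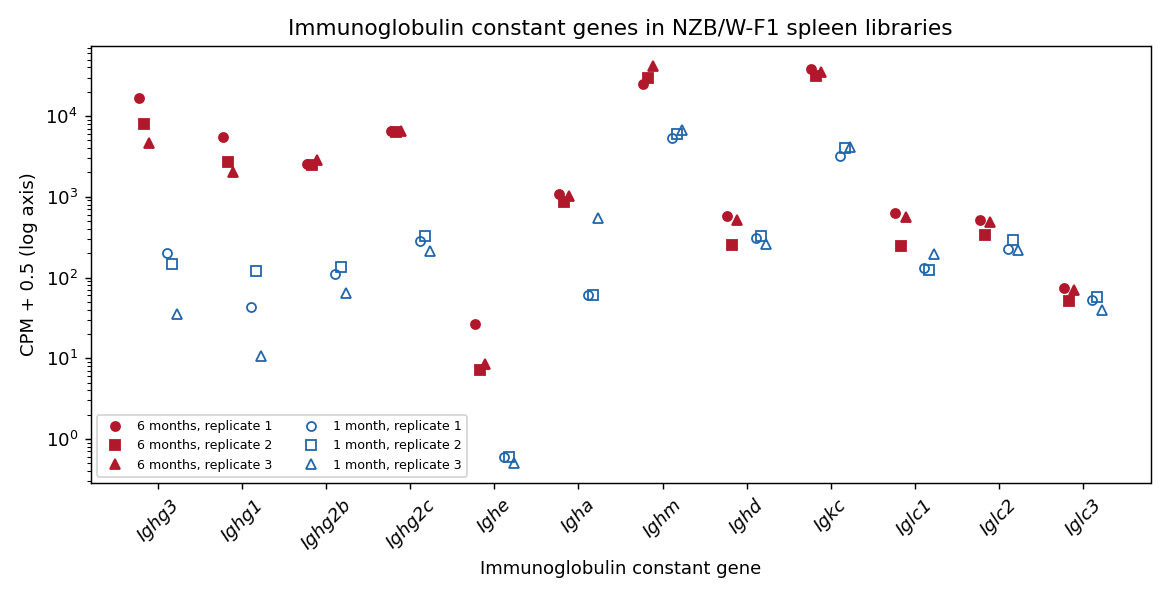
CPM + 0.5 (log axis) of the 12 immunoglobulin constant genes in each of the 3 hybrid spleen libraries of 6 months (filled, left of each pair) and 1 month (open, right). The 4 IgG genes and Ighe lie apart between the ages, and Igha shows 1 high library at 1 month.

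The class of the heavy chain differed between the ages as well as its amount. IgG, IgA and IgE together took 55.7%, 40.6% and 28.5% of heavy-chain constant reads at 6 months, against 10.9%, 11.1% and 10.9% at 1 month. The groups did not overlap, and the means were 41.6 ± 13.6% and 10.96 ± 0.157% (SD, n = 3 each). The older spleens spread widely in this share while the younger ones were nearly identical, and each share rests on at least 50340.0 reads, with Wilson 95% intervals of under 1 percentage point that cover counting error only. With 3 animals against 3, an exact permutation test cannot give a two-sided p below 0.1, so none is claimed.

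IgG alone took 39.8 ± 13.5% of heavy-chain constant reads at 6 months and 8.09 ± 3.52% at 1 month (SD, n = 3 each). Within IgG, the IgG3 gene took 41.2 ± 12.4% at 6 months and 20.8 ± 10.3% at 1 month, and Ighg2c took 31.3 ± 9.998% at 6 months and 51.7 ± 12.4% at 1 month. The smallest share of IgG3 at 6 months, 28.8%, lay below the largest at 1 month, 31.4%, so the ages overlapped for this measure. IgA took 1.76 ± 0.0818% of heavy-chain reads at 6 months and 2.87 ± 3.44% at 1 month, where replicate 3 alone had 6.84%. All constant genes together took 8.88 ± 0.978% of the reads of a spleen at 6 months and 1.10 ± 0.136% at 1 month.

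**Figure D2:**
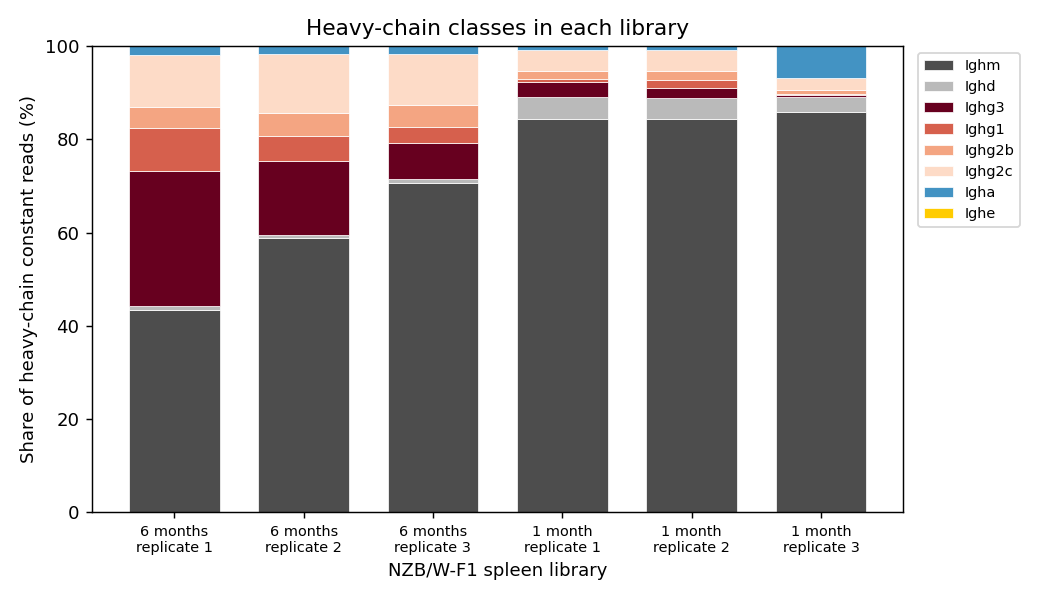
Share of heavy-chain constant reads (%) taken by each heavy-chain gene in the 3 hybrid spleens of 6 months (left) and the 3 of 1 month (right). IgM takes 43.3 to 70.6% at 6 months and 84.3 to 85.8% at 1 month, with Ighg3 the largest IgG block in 6-month replicate 1.

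The variable segments, which carry the antigen-binding part of the chain, rose across most of the repertoire. Of 97 kappa V segments 78 rose and none fell (median log2 fold change 3.04), and of 105 heavy V segments 78 rose and none fell (median 2.95). Without 6-month replicate 3, 58 kappa and 62 heavy segments were called. Among 3 lambda V segments 2 rose, and 2 were called without 6-month replicate 3. Of 19 T cell receptor V segments none was called by limma, with all libraries or without 6-month replicate 3 (median -0.047). In the full set 3 of the 19 had an unadjusted p under 0.05, beside 4687 of all 15122 genes. V segments took 2.08 ± 0.564% of reads at 6 months and 0.198 ± 0.0884% at 1 month (SD, n = 3 each).

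Reads were spread over many segments at both ages. The effective number of kappa segments (the number of equally used segments that would give the same evenness) was 38.5, 48.5 and 35.98 at 6 months, against 45.3, 49.5 and 42.0 at 1 month. For heavy segments it was 39.6, 50.3 and 42.3 at 6 months, against 47.2, 46.9 and 32.4 at 1 month, so the ages overlapped. Single animals differed in which segment led. Igkv5-43 had 409, 866 and 4518 CPM at 6 months, against 12.2, 14.3 and 19.8 CPM at 1 month, and in 6-month replicate 3 it held 23.7% of kappa V reads. Igkv14-126 had 1919, 979 and 1199.7 CPM at 6 months, against 10.6, 20.5 and 223 CPM at 1 month, and it led in the other two 6-month spleens. Ighv1-14 had 432, 381 and 267 CPM at 6 months, against 11.6, 8.97 and 24.2 CPM at 1 month, more evenly among the older spleens (log2 fold change 4.64 ± 0.44 SE, adjusted p = 3.49e-05). Related segments share sequence and the hybrids' alleles were aligned to a C57BL/6 reference, so the name of a segment is uncertain.

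Genes of the plasma cell rose together with antibody. Of 16 plasma cell genes 14 rose and none fell, with a median log2 fold change of 2.08, and 13 were called without 6-month replicate 3. Jchain, which joins IgM and IgA into polymers, had 7656, 9623 and 11472 CPM at 6 months, against 919, 1123 and 1447 CPM at 1 month (log2 fold change 3.05 ± 0.34 SE, adjusted p = 1.33e-04). Sdc1, the surface marker CD138, had 112, 86.5 and 121 CPM at 6 months, against 21.3, 22.3 and 22.8 CPM at 1 month (log2 fold change 2.23 ± 0.31 SE, adjusted p = 6.75e-04). Every older spleen was well above every younger one for both, with little spread inside a group.

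The transcription factors that set the plasma cell programme were higher too. Prdm1, encoding Blimp-1, had 44.9, 56.4 and 63.3 CPM at 6 months, against 10.9, 9.87 and 13.3 CPM at 1 month (log2 fold change 2.22 ± 0.28 SE, adjusted p = 2.86e-04). Xbp1, which expands the secretory pathway, had 573, 722 and 636 CPM at 6 months, against 155, 142 and 176 CPM at 1 month (log2 fold change 2.02 ± 0.21 SE, adjusted p = 7.24e-05). Irf4 had 199.9, 145 and 237 CPM at 6 months, against 54.2, 58.1 and 54.5 CPM at 1 month (log2 fold change 1.77 ± 0.17 SE, adjusted p = 4.60e-05). For each factor every older spleen was above every younger one.

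Tnfrsf17, encoding BCMA, the survival receptor of plasma cells, had 10.995, 13.99 and 15.5 CPM at 6 months, against 2.62, 2.69 and 2.67 CPM at 1 month (log2 fold change 2.13 ± 0.39 SE, adjusted p = 0.00429). Mzb1, a chaperone of the antibody-secreting cell, rose by a log2 fold change of 2.17 ± 0.19 SE, although 55.1% of its 31-base words also occur in the neighbouring gene Spata24 and its level is uncertain. Slamf7 (1.63 ± 0.17), Txndc5 (1.67 ± 0.22) and Fkbp11 (2.40 ± 0.50 SE), which serve the surface or the folding machinery of these cells, rose as well. Of the list, Tent5c was not called and pointed down, with 294, 747 and 299.8 CPM at 6 months, against 834, 667 and 1001 CPM at 1 month.

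The endoplasmic reticulum (ER), where antibody is folded, showed a smaller rise. Of 17 chaperone and unfolded protein response genes 10 rose and 1 fell (median log2 fold change 0.72), with 7 called without 6-month replicate 3. For 15 of the 17 all older spleens were above the younger ones (19.7% of all genes). For 2 all older spleens were below (14.3% of all genes). Derl3 and Edem1, of the pathway that removes misfolded proteins, were among the strongest. Derl3, counted in the plasma cell list, had 97.9, 87.6 and 85.9 CPM at 6 months, against 16.6, 22.3 and 16.01 CPM at 1 month (log2 fold change 2.29 ± 0.35 SE, adjusted p = 0.00137), and Edem1 had 524, 644 and 621 CPM at 6 months, against 147, 153 and 184 CPM at 1 month (log2 fold change 1.88 ± 0.18 SE, adjusted p = 4.19e-05). Dnajb9 had 87.2, 130.4 and 130.3 CPM at 6 months, against 29.7, 31.9 and 36.7 CPM at 1 month (log2 fold change 1.79 ± 0.24 SE, adjusted p = 4.73e-04). Herpud1 (1.48 ± 0.16), Pdia4 (1.51 ± 0.23), Sel1l (1.82 ± 0.37) and Hsp90b1 (1.28 ± 0.21 SE) rose as well, and of these Sel1l was not called without 6-month replicate 3 (adjusted p = 0.0546).

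The main chaperone Hspa5, also called BiP, was already abundant and was not called, with 1069, 1561 and 1046 CPM at 6 months, against 828, 774 and 808 CPM at 1 month (log2 fold change 0.58 ± 0.20 SE, adjusted p = 0.065). Calr, encoding calreticulin, was not called either (log2 fold change 0.37 ± 0.20 SE, adjusted p = 0.22). Ddit3, encoding CHOP, the factor linked to cell death under ER stress, fell, with 17.4, 15.7 and 12.7 CPM at 6 months, against 25.9, 28.1 and 21.8 CPM at 1 month (log2 fold change -0.71 ± 0.18 SE, adjusted p = 0.0259). It was not called without 6-month replicate 3 (adjusted p = 0.135).

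Several of these genes share a regulatory sequence, the ER stress response element, in which CCAAT, bound by NF-Y, and CCACG, bound by ATF6 or XBP1, stand 9 bases apart. Promoter sequence is from RefSeq on GRCm38.p6, 250 bases before to 50 after each gene's start. Both strands were searched for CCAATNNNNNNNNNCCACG. It occurs in 39 of 32851 windows (0.119%). Counted by gene, it occurs in 37 of 27025 genes with a window, among them 5 of 15 ER list genes and 2 of 14 plasma cell list genes. These shares were not tested. These sites are shown because they let the genes be compared at the bases that define the element, which are in capitals, read 5′ to 3′ on the strand of the match.
Derl3, chr10:75893242-75893260, minus strand: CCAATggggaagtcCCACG
Creld2, chr15:88819520-88819538, minus strand: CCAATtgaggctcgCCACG
Hsp90b1, chr10:86705638-86705656, minus strand: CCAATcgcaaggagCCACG
Hsp90b1, second site, chr10:86705533-86705551, plus strand: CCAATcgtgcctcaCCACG
Dnajc3, chr14:118937827-118937845, plus strand: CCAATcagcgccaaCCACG
Hspa5, chr2:34772025-34772043, plus strand: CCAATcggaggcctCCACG
Pdia6, chr12:17266491-17266509, plus strand: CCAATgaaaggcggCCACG
Calr, chr8:84847075-84847093, plus strand: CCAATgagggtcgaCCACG

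Of these 7 genes, Derl3, Creld2 (log2 fold change 1.72 ± 0.20 SE), Hsp90b1 and Dnajc3 (0.86 ± 0.19 SE) were called and higher, while Hspa5, Pdia6 (0.63 ± 0.20 SE, adjusted p = 0.0536) and Calr were not called. Dnajc3 lost its call without 6-month replicate 3 (adjusted p = 0.0651). Over the genome 18 measured genes carry the element, and of the 11 outside both lists limma called none. Of these 11, 2 had an unadjusted p under 0.05, beside 4687 of all 15122 genes. A match is a description of the letters and not evidence of binding. The promoter of Derl3 is shown whole up to its start (chr10:75893148-75893397, plus strand, GRCm38.p6), since it is the carrier with the largest rise, and that of Hsp90b1 (chr10:86705445-86705694, minus strand) because it holds 2 elements, the defining bases again in capitals on the gene's strand.
Derl3: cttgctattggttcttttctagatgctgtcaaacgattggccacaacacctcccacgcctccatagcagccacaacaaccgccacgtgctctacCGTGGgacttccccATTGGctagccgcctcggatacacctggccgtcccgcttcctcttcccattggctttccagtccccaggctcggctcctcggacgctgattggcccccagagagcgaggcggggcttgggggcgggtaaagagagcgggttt
Hsp90b1: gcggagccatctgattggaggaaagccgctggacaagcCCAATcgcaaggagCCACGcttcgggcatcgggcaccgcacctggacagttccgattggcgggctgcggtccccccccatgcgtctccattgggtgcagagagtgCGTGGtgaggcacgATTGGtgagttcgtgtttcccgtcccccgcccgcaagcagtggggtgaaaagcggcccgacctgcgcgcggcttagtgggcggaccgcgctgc

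Genes of the germinal centre rose. Of 11 measured, 9 rose and none fell (median log2 fold change 1.90), and 6 were called without 6-month replicate 3. Nuggc, a nuclear GTPase of germinal centre B cells, had 27.4, 19.1 and 16.8 CPM at 6 months, against 5.25, 2.69 and 0 CPM at 1 month (log2 fold change 3.34 ± 0.65 SE, adjusted p = 0.0065). It varied among the younger spleens, where replicate 3 had no read.

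Rgs13, a regulator of G-protein signalling in germinal centre B cells, had 19.2, 14.8 and 11.3 CPM at 6 months, against 2.44, 2.51 and 1.10 CPM at 1 month (log2 fold change 2.66 ± 0.45 SE, adjusted p = 0.00275), and S1pr2, the receptor that keeps B cells inside the germinal centre, 61.6, 36.96 and 39.3 CPM at 6 months, against 13.1, 11.3 and 9.42 CPM at 1 month (log2 fold change 1.95 ± 0.27 SE, adjusted p = 6.99e-04). Mybl1 (1.90 ± 0.38) and Gcsam (1.77 ± 0.27 SE) rose as well. Bcl6, the master repressor of the germinal centre, rose by less, with 60.9, 49.8 and 58.2 CPM at 6 months, against 34.4, 35.8 and 30.8 CPM at 1 month (log2 fold change 0.73 ± 0.18 SE, adjusted p = 0.0199), and was not called without 6-month replicate 3 (adjusted p = 0.0876).

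A set of genes that marks the T-bet+ CD11c+ B cells of ageing and autoimmune mice was partly higher. Of 8 such genes 5 rose and none fell (median 1.32), with 3 called without 6-month replicate 3. Fcrl5 had 49.2, 33.6 and 66.9 CPM at 6 months, against 10.6, 8.43 and 4.40 CPM at 1 month (log2 fold change 2.63 ± 0.32 SE, adjusted p = 2.74e-04). Itgax, encoding CD11c, which dendritic cells also express, had 113, 78.8 and 186 CPM at 6 months, against 31.02, 37.1 and 33.3 CPM at 1 month (log2 fold change 1.80 ± 0.28 SE, adjusted p = 0.00154), with replicate 3 the highest. Cxcr3 had 43.6, 25.6 and 34.5 CPM at 6 months, against 13.2, 11.8 and 9.42 CPM at 1 month (log2 fold change 1.53 ± 0.21 SE, adjusted p = 5.36e-04). Tbx21, encoding T-bet itself, was not called and overlapped between the ages, with 33.3, 15.5 and 24.1 CPM at 6 months, against 18.9, 12.2 and 8.79 CPM at 1 month. Tlr7, the RNA sensor, and Zbtb32 rose in the full set (1.12 ± 0.30 and 1.51 ± 0.39 SE), but neither was called without replicate 3 (adjusted p = 0.169 for Tlr7 and 0.0702 for Zbtb32).

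General B cell genes moved little beside these. Of 14 follicular and pan-B genes 2 rose, Bank1 (0.79 ± 0.18) and Ebf1 (0.66 ± 0.20 SE), and none was called without 6-month replicate 3, while the list median was 0.44. Ms4a1, encoding CD20, had 759, 541 and 713 CPM at 6 months, against 495, 469 and 362 CPM at 1 month (log2 fold change 0.60 ± 0.29 SE, adjusted p = 0.177). Of 9 marginal zone and B1 genes 3 rose (2 without 6-month replicate 3). Among the 3, Bhlhe41, a regulator of B1 cells, had 42.96, 29.3 and 29.1 CPM at 6 months, against 11.8, 7.63 and 9.58 CPM at 1 month (log2 fold change 1.75 ± 0.26 SE, adjusted p = 0.00112). The exons of Bhlhe41 overlap a gene on the other strand over 19% of their bases and the strand setting of the counting is not stated, so reads of the pair cannot be told apart.

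The genes named for the largest falls included 4 that act in early B cell development, which were not part of a fixed list. Rag1, the recombinase that assembles antigen receptor genes, had 0, 0.209 and 0.554 CPM at 6 months, against 7.87, 11.8 and 16.3 CPM at 1 month (log2 fold change -4.06 ± 0.56 SE, adjusted p = 6.16e-04), or 7 reads in all against 323. Igll1, part of the surrogate light chain of the pre-B cell receptor, had 0.0852, 0.104 and 0 CPM at 6 months, against 4.97, 6.91 and 6.59 CPM at 1 month. With 2 reads in all at 6 months against 174 at 1 month, the ratio of its depth-weighted levels was 0.0108 (95% exact counting interval 0.0013 to 0.0397). Vpreb1, the other part of that chain, had 0.256, 0.418 and 0.221 CPM at 6 months, against 4.88, 7.09 and 3.77 CPM at 1 month (log2 fold change -2.82 ± 0.42 SE, adjusted p = 0.0012).

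Dntt, the polymerase that adds bases at V(D)J joints, had 0.682, 1.25 and 1.44 CPM at 6 months, against 9.32, 10.3 and 12.6 CPM at 1 month (log2 fold change -2.81 ± 0.33 SE, adjusted p = 2.09e-04). For all 4 genes the lowest 1-month spleen was above the highest 6-month spleen, and each was also called without 6-month replicate 3, with adjusted p between 1.24e-04 and 0.00859. Of 12 blood progenitor genes 2 rose and 2 fell (median 0.0070). Those that rose, Ly6a (1.76 ± 0.15) and Slamf1 (0.86 ± 0.15 SE), were also called without 6-month replicate 3. Those that fell, Myb (-1.37 ± 0.30) and Lmo2 (-1.28 ± 0.32 SE), were not (adjusted p = 0.0653 for Myb and 0.123 for Lmo2).

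Among T cell lists, those of helper and regulatory cells moved up. Of 10 follicular helper genes 4 rose and none fell (median 0.76), and 4 were called without 6-month replicate 3. Pdcd1, encoding PD-1, had 40.4, 20.1 and 30.01 CPM at 6 months, against 6.51, 6.10 and 2.98 CPM at 1 month (log2 fold change 2.44 ± 0.29 SE, adjusted p = 2.09e-04). Il21, the cytokine by which these cells help B cells, had 6.73, 6.68 and 10.3 CPM at 6 months, against 0.995, 1.26 and 0.471 CPM at 1 month (log2 fold change 2.59 ± 0.49 SE, adjusted p = 0.00558). Tnfsf8, encoding the CD30 ligand, had 29.3, 23.9 and 24.03 CPM at 6 months, against 6.96, 6.19 and 4.71 CPM at 1 month (log2 fold change 2.03 ± 0.28 SE, adjusted p = 6.07e-04). The older spleens had several times the level of the younger ones for each, with no overlap.

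Of 8 regulatory T cell genes 6 rose and none fell (median 1.54), and 4 were called without 6-month replicate 3. Tigit, an inhibitory receptor, had 19.4, 18.5 and 21.5 CPM at 6 months, against 3.26, 3.23 and 2.04 CPM at 1 month (log2 fold change 2.62 ± 0.27 SE, adjusted p = 6.41e-05). Ctla4 had 20.3, 13.4 and 20.7 CPM at 6 months, against 3.98, 5.02 and 1.88 CPM at 1 month (log2 fold change 2.23 ± 0.45 SE, adjusted p = 0.00796). Foxp3, the defining factor of the lineage, had 17.2, 7.93 and 12.7 CPM at 6 months, against 5.25, 5.29 and 2.83 CPM at 1 month (log2 fold change 1.39 ± 0.29 SE, adjusted p = 0.0106), but was not called without replicate 3 (adjusted p = 0.0528), and its exons overlap genes on the other strand over 18.7% of their bases. Il10, an anti-inflammatory cytokine that B cells and myeloid cells also make, had 4.43, 3.65 and 9.19 CPM at 6 months, against 0.543, 0.359 and 0.314 CPM at 1 month (log2 fold change 2.70 ± 0.55 SE, adjusted p = 0.00877). Replicate 3 was the highest, and Il10 was not called without it (adjusted p = 0.0567). Lag3, an inhibitory receptor of activated T cells, had 60.6, 54.1 and 69.9 CPM at 6 months, against 15.3, 16.2 and 14.4 CPM at 1 month (log2 fold change 1.97 ± 0.24 SE, adjusted p = 2.76e-04).

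Pan-T genes had a median of -0.13, and among 16 genes 1 rose and 3 fell. The genes that fell were Cd8a and Cd8b1, the chains of the CD8 co-receptor, and Lef1, a factor of naive T cells. Cd8a had 34.8, 15.1 and 32.9 CPM at 6 months, against 63.04, 59.4 and 44.3 CPM at 1 month (log2 fold change -1.07 ± 0.27 SE, adjusted p = 0.0227), with 6-month replicate 2 the lowest. Cd8b1 (-1.33 ± 0.33) and Lef1 (-1.35 ± 0.39 SE) fell as well, with 6-month replicate 2 again the lowest, and of the 3 only Cd8a was called without 6-month replicate 3. Cd28, the co-stimulatory receptor, rose (0.79 ± 0.24 SE) but was not called without 6-month replicate 3 (adjusted p = 0.228). Of 13 effector and cytotoxic T cell genes 3 rose, and of 10 natural killer cell genes 1 rose, with none lower in either list. Without 6-month replicate 3 these counts were 1 and 0.

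The monocyte list had a median of 0.82, and for 8 of its 12 genes all older spleens were above the younger ones (19.7% of all genes). The macrophage list had a median of 0.53. In it 7 of 19 genes lay apart and higher, and 1 lay apart and lower. Fcgr4, a mouse receptor for IgG2 antibodies on monocytes and macrophages, had 80.5, 98.97 and 201 CPM at 6 months, against 14.7, 13.9 and 19.8 CPM at 1 month (log2 fold change 2.84 ± 0.53 SE, adjusted p = 0.00503). All 3 older spleens were above the younger ones and replicate 3 was highest. Cd14 (1.66 ± 0.30) and Cx3cr1 (1.37 ± 0.25 SE) rose as well, so that 4 of 12 monocyte genes were higher (3 without 6-month replicate 3). Of 19 macrophage genes 2 rose, Cd5l, which binds IgM, with 159, 293 and 324 CPM at 6 months, against 46.03, 32.03 and 46.9 CPM at 1 month (log2 fold change 2.58 ± 0.55 SE, adjusted p = 0.0106), and Vsig4, a complement receptor, with 4.69, 6.16 and 8.97 CPM at 6 months, against 0.271, 0.897 and 1.73 CPM at 1 month (log2 fold change 2.36 ± 0.46 SE, adjusted p = 0.00624). Without 6-month replicate 3 Cd5l was not called (adjusted p = 0.0605), which left 1 gene of the list called. Wfdc17, a small secreted protein of activated macrophages, had 33.8, 60.7 and 69.1 CPM at 6 months, against 4.97, 3.32 and 6.28 CPM at 1 month (log2 fold change 3.34 ± 0.31 SE, adjusted p = 2.87e-05).

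Of 19 measured chemokine genes 5 rose (2 without 6-month replicate 3), led by a pair that were close to absent at 1 month. Cxcl14 had 12.9, 8.35 and 15.5 CPM at 6 months, against 0.181, 0.538 and 0.471 CPM at 1 month (log2 fold change 3.81 ± 0.47 SE, adjusted p = 2.74e-04). Ccl8 had 7.16, 15.6 and 7.09 CPM at 6 months, against 0.181, 0.269 and 0.314 CPM at 1 month (log2 fold change 3.70 ± 0.41 SE, adjusted p = 1.15e-04), with 6-month replicate 2 the highest. Il1b, the inflammatory cytokine, had 64.9, 23.5 and 152 CPM at 6 months, against 10.8, 8.08 and 14.8 CPM at 1 month (log2 fold change 2.45 ± 0.53 SE, adjusted p = 0.012), an uneven rise that was not called without replicate 3 (adjusted p = 0.0567). Tnfsf13b, encoding BAFF, the survival factor of B cells, rose modestly (0.95 ± 0.25 SE) and was not called without that library (adjusted p = 0.152).

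Red cell RNA was lower in every older spleen, and very unevenly so. Summed over the 27 measured erythroid genes it was 5097, 33706 and 1239 CPM at 6 months, against 68765, 58321 and 73231 CPM at 1 month. All 3 older sums were below the younger ones, with 6-month replicate 2 nearest to them and replicate 3 lowest. The list median was -3.25, the groups did not overlap for 20 of 27 genes, all lower (14.3% of all genes), and 4 genes fell in limma. No erythroid gene was called in limma without 6-month replicate 3 (smallest adjusted p = 0.125), none was called by edgeR on all libraries (smallest adjusted p = 0.0834), and 23 were called without 6-month replicate 2.

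Of the haemoglobin chains, Hbb-bs had 1952, 12091 and 427 CPM at 6 months, against 29331, 25838 and 29882 CPM at 1 month (log2 fold change -3.71 ± 1.04 SE, adjusted p = 0.0359). Hbb-bt had 217, 937 and 30.3 CPM at 6 months, against 3289, 2655 and 3216 CPM at 1 month (log2 fold change -4.04 ± 1.04 SE, adjusted p = 0.0254), and Hba-a1 763, 4461 and 111 CPM at 6 months, against 9909, 10822 and 9747 CPM at 1 month (log2 fold change -3.81 ± 1.10 SE, adjusted p = 0.0402). They share 54.4%, 59.4% and 75.5% of their 31-base words with neighbouring copies (Hbb-bs, Hbb-bt and Hba-a1 in that order), so the split between copies is uncertain. Haemoglobin RNA took 0.287%, 1.64% and 0.0558% of reads at 6 months, against between 3.92 and 4.16% at 1 month.

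In other genes of red cell precursors 6-month replicate 2 was again the highest of the older spleens. Epor, the erythropoietin receptor, had 32.2, 113 and 16.3 CPM at 6 months, against 236, 218 and 198 CPM at 1 month (log2 fold change -2.46 ± 0.75 SE, adjusted p = 0.0466). Tfr2, a transferrin receptor that sits with it, had 7.33, 49.1 and 2.33 CPM at 6 months, against 106, 98.1 and 89.02 CPM at 1 month (log2 fold change -3.25 ± 1.00 SE, adjusted p = 0.0484), and Bpgm, a red cell enzyme, 54.5, 247 and 35.1 CPM at 6 months, against 624, 593 and 531 CPM at 1 month (log2 fold change -2.89 ± 0.72 SE, adjusted p = 0.0227). Erfe, the hormone by which red cell precursors lower hepcidin, had 0.426, 1.88 and 0.443 CPM at 6 months, against 16.4, 8.70 and 4.71 CPM at 1 month (log2 fold change -2.87 ± 0.71 SE, adjusted p = 0.0221). Also outside the list, like Tfr2, Bpgm and Erfe, C1qtnf12 (-2.82 ± 0.80) and Tac2 (-3.23 ± 0.93 SE) fell too. Without 6-month replicate 3 none of these 5 genes was called (adjusted p = 0.104 to 0.24), and by edgeR on all libraries only Erfe was (adjusted p = 0.0363). Alas2, of haem synthesis, had 130.1, 967 and 36.4 CPM at 6 months, against 1740.3, 1320.4 and 1864 CPM at 1 month and was not called (adjusted p = 0.0853).

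Cell cycle RNA was uneven over the same libraries. Its sum over 28 genes was 2872, 8415 and 2111 CPM at 6 months, against 10823, 8063 and 12523 CPM at 1 month, so that 6-month replicate 2 lay inside the range of the younger spleens and the other two lay below it. In the full set 2 genes fell, Mcm3 (-1.16 ± 0.34) and E2f1 (-1.57 ± 0.41 SE), and the list median was -1.42. None was called without 6-month replicate 3 (smallest adjusted p = 0.152) and 26 were called without replicate 2. Mki67, the proliferation antigen, had 581, 2464 and 426 CPM at 6 months, against 3058, 2310.4 and 3544 CPM at 1 month (log2 fold change -1.79 ± 0.76 SE, adjusted p = 0.129).

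Neutrophil granule genes had a median of -1.54, and limma called none of 19 over all libraries, although the fit of only the compared groups called 4 lower. Chil3, which is in the list, had no read in any hybrid spleen, so it could be neither called nor apart between the ages. For 9 of the 19 all older spleens were below the younger ones (14.3% of all genes). Their sum was 788, 939 and 3403 CPM at 6 months, against 3359, 3966 and 4787 CPM at 1 month, with 6-month replicates 1 and 2 low and replicate 3 just inside the younger range. In limma 9 of the 19 had an unadjusted p under 0.05, beside 4687 of all 15122 genes. Neither edgeR on all libraries nor limma without 6-month replicate 3 called any of the 19. Prtn3, the protease proteinase 3, had 14.1, 20.04 and 40.97 CPM at 6 months, against 79.04, 121 and 86.8 CPM at 1 month (log2 fold change -2.03 ± 0.74 SE, adjusted p = 0.0841). Megakaryocyte and platelet genes went the other way, with a sum of 3965, 5092 and 3992 CPM at 6 months, against 1460.0, 2556 and 2521 CPM at 1 month. For 14 of 15 all older spleens were above the younger ones (19.7% of all genes), and 3 were called, Itgb3 (1.02 ± 0.31), Tubb1 (1.09 ± 0.32) and Thbs1 (1.17 ± 0.36 SE). None of the 15 was called by edgeR (smallest adjusted p = 0.0558) or by limma without 6-month replicate 3 (0.134).

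**Figure D3:**
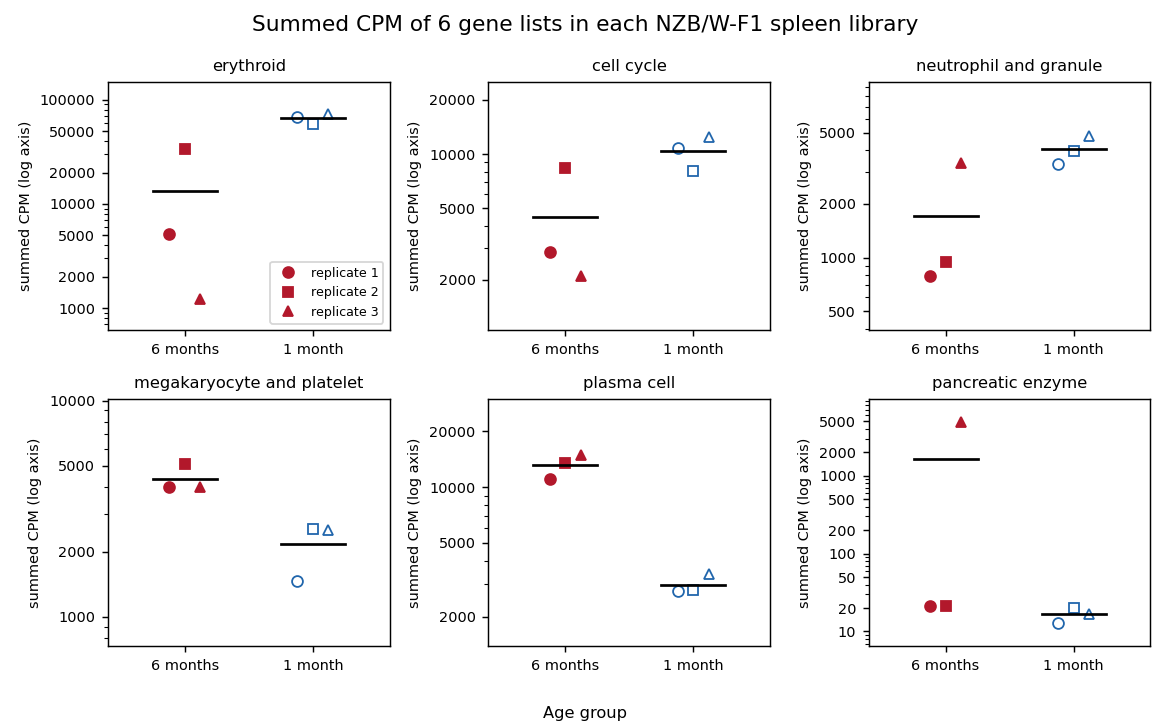
Summed CPM (log axis) of 6 gene lists in each hybrid spleen of 6 months (filled, left) and 1 month (open, right), with group means as bars. Replicate 2 stands high at 6 months for erythroid and cell cycle genes, and replicate 3 for neutrophil genes and pancreatic enzymes, while plasma cell genes lie apart between the ages.

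Of 36 type I interferon-stimulated genes 2 rose and 2 fell, with a median of 0.21, beside 8.03% of all genes higher and 4.63% lower. The genes that fell were Isg20 and Oas3, and Isg20, an exonuclease, had 61.5, 179 and 34.7 CPM at 6 months, against 366, 276 and 299 CPM at 1 month (log2 fold change -2.09 ± 0.62 SE, adjusted p = 0.0425), with 6-month replicate 2 the highest of the older spleens, as for the red cell genes. Rsad2, an antiviral enzyme, followed the same order and was not called, with 44.2, 501 and 26.8 CPM at 6 months, against 571, 445 and 823 CPM at 1 month. The genes that rose were Zbp1 (0.82 ± 0.22) and Oas1a (0.72 ± 0.17 SE), and Oas1a shares 68.8% of its 31-base words with Oas1g, so its level is uncertain. None of the 36 was called without 6-month replicate 3 (smallest adjusted p = 0.0737).

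Of 15 measured genes induced by interferon-gamma 6 rose and none fell, with a median of 0.67, and only Gbp5 was called without 6-month replicate 3. Gbp5 had 37.7, 35.3 and 53.9 CPM at 6 months, against 24.1, 21.9 and 22.8 CPM at 1 month (log2 fold change 0.85 ± 0.17 SE, adjusted p = 0.00837), and Gbp3 (0.84 ± 0.17), Gbp4 (0.82 ± 0.20) and Gbp2 (0.71 ± 0.19 SE) rose by about as much. Cxcl9, a chemokine that draws T cells, had 56.8, 70.1 and 81.05 CPM at 6 months, against 43.6, 36.5 and 26.2 CPM at 1 month (log2 fold change 0.97 ± 0.29 SE, adjusted p = 0.0427). In the Ifi200 family, which lies in a lupus locus of New Zealand mice, 3 of 12 rose, Aim2 (1.07 ± 0.31), Ifi205 (1.15 ± 0.30) and Ifi211 (0.98 ± 0.25 SE), and none was called without that library. Ifi211 shares 78.9% of its 31-base words with Mndal.

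SLAM family receptors are also encoded in a lupus locus on chromosome 1. Of the 11 genes in this list, which also holds the adaptors Sh2d1a and Sh2d1b1, 6 rose with none lower (median 0.86). Without 6-month replicate 3, 4 were called. Slamf9 had 21.3, 21.4 and 33.4 CPM at 6 months, against 2.26, 3.86 and 3.77 CPM at 1 month (log2 fold change 2.77 ± 0.27 SE, adjusted p = 4.98e-05), the largest of the family. Slamf1 had 51.99, 57.3 and 49.9 CPM at 6 months, against 28.4, 28.98 and 29.4 CPM at 1 month (log2 fold change 0.86 ± 0.15 SE, adjusted p = 0.00251). In the MHC, 3 of 15 class I genes and 2 of 11 class II genes rose (1 and 1 without 6-month replicate 3). B2m, the light chain of class I, had 2437, 2638 and 2667 CPM at 6 months, against 1305, 1339 and 1238 CPM at 1 month (log2 fold change 1.00 ± 0.19 SE, adjusted p = 0.00507), and H2-Eb2 had 29.8, 15.3 and 25.2 CPM at 6 months, against 8.23, 6.55 and 3.61 CPM at 1 month (log2 fold change 1.87 ± 0.30 SE, adjusted p = 0.00183).

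**Figure D4:**
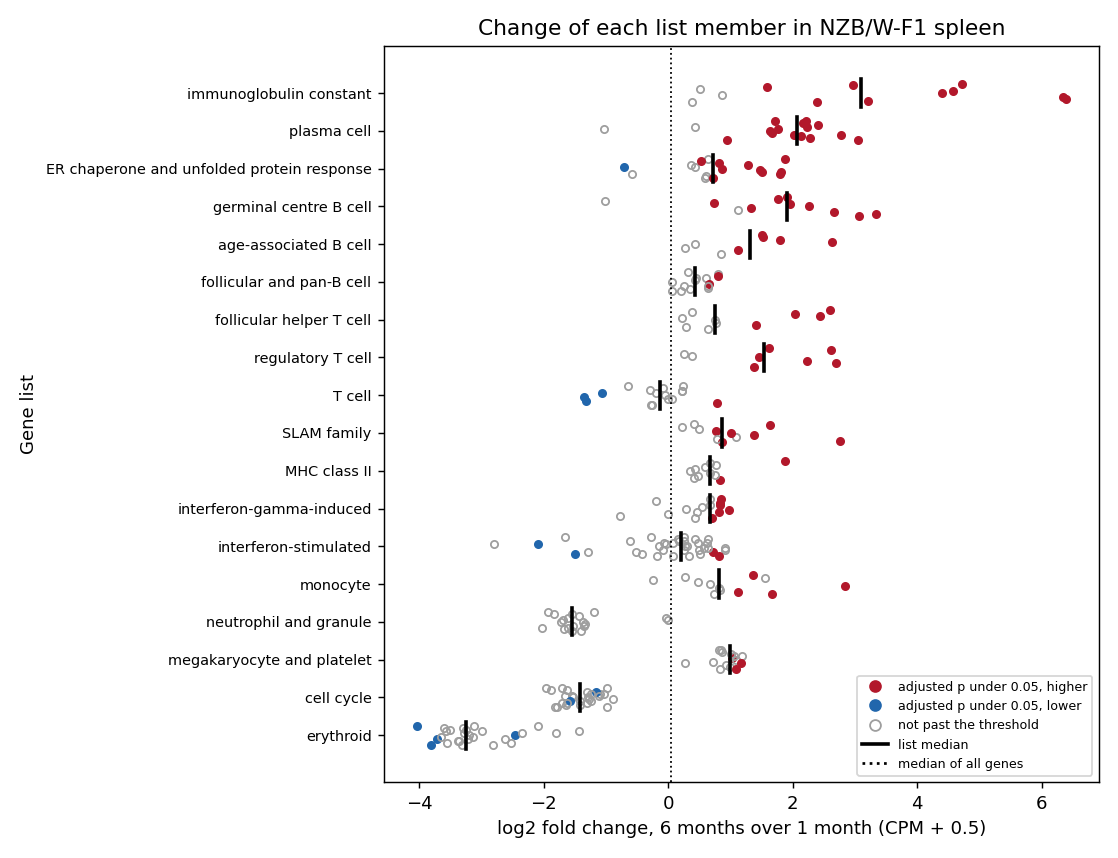
log2 fold change of 6 over 1 months for every tested member of 18 gene lists in hybrid spleen, with filled points past an adjusted p of 0.05, black bars at list medians and a dotted line at the median of all genes. Antibody, plasma cell and germinal centre genes lie to the right, and red cell and cell cycle genes to the left with few of them past the threshold.

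The age-matched strain showed where these changes differ from ageing in C57BL/6 spleen. There 28 genes differed between 6 and 1 months, 24 higher (0.159% of genes) and 4 lower (0.0265%), by limma. Antibody genes were among them, since 6 of the 12 constant genes rose. Ighg2c had 502 and 605 CPM in the C57BL/6 spleens at 6 months, against 7.67, 7.79 and 8.34 CPM at 1 month (log2 fold change 6.03 ± 0.35 SE, adjusted p = 9.84e-07), and Ighg3 had 235 and 237 CPM in the C57BL/6 spleens at 6 months, against 24.6, 16.3 and 15.5 CPM at 1 month (log2 fold change 3.65 ± 0.64 SE, adjusted p = 0.0407). Over the 12 constant genes the smallest adjusted p for a difference between the strains in the change with age was 0.0555, and that for Ighg3 was a difference of 2.75 ± 0.85 SE, adjusted p = 0.0806.

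The test of the difference itself, the strain by age interaction, called 148 genes (0.979%), 128 with a higher log2 fold change in hybrids (0.846%) and 20 with a lower one (0.132%), beside a median difference of 0.16 over all genes. Without hybrid 6-month replicate 3 it called 15 genes, all with a higher log2 fold change in hybrids. Which of the genes named with a higher change were among the 15 is not given here. Of the genes named, the V segment Ighv1-14 had the highest difference (4.45 ± 0.66 SE, adjusted p = 0.0159). Cxcl14 had 0.434 and 0.836 CPM in the C57BL/6 spleens at 6 months, against 0.451, 0 and 1.67 CPM at 1 month beside its rise in hybrids (difference 3.66 ± 0.71 SE, adjusted p = 0.0356). Smpdl3b, a lipid enzyme of the macrophage surface, rose in hybrids, with 7.16, 11.1 and 14.9 CPM at 6 months, against 1.09, 1.17 and 0.785 CPM at 1 month, against a C57BL/6 log2 fold change -0.39 ± 0.37 SE, a difference of 3.28 ± 0.50 SE, adjusted p = 0.0159. Slamf9 differed by 2.61 ± 0.41 SE, adjusted p = 0.0159.

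In the plasma cell list Xbp1, Irf4, Mzb1 and Slamf7 differed between strains in the fit of all libraries. Irf4 had 72.3 and 101 CPM in the C57BL/6 spleens at 6 months, against 87.3, 98.2 and 98.7 CPM at 1 month (difference 1.91 ± 0.26 SE, adjusted p = 0.011). The genes that differed were 4 of the 16 of the list. Jchain was not among them, since it also rose in C57BL/6 (log2 fold change 2.98 ± 0.38 SE, adjusted p = 0.00501). Its difference between strains was 0.07 ± 0.51 SE, adjusted p = 0.944. In the B cell lists Fcrl5, Itgax, Cxcr3, S1pr2, Gcsam and Bhlhe41 differed in the fit of all libraries, with C57BL/6 changes between -0.62 and 0.21 in log2. Gzmk, a granzyme of cytotoxic T cells, and Apoc1, an apolipoprotein of macrophages, were called for the difference and not in hybrids alone. Gzmk had 4.18, 1.77 and 6.09 CPM at 6 months, against 1.63, 1.26 and 0.785 CPM at 1 month in hybrids, and 1.74 and 2.67 CPM in the C57BL/6 spleens at 6 months, against 11.6, 8.14 and 7.45 CPM at 1 month (difference 3.11 ± 0.67 SE, adjusted p = 0.0457).

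On the lower side, Dntt fell in hybrids but had 1.74 and 0.836 CPM in the C57BL/6 spleens at 6 months, against 2.14, 1.77 and 0.784 CPM at 1 month (difference -2.62 ± 0.50 SE, adjusted p = 0.0356). Rgcc, Josd2 and Cdt1, the last a licensing factor of DNA replication, also fell in hybrids with C57BL/6 changes of 1.48, 0.80 and 1.02 in log2. In hybrids Rgcc and Cdt1 were not called without 6-month replicate 3 (adjusted p = 0.136 and 0.123). The 15 genes that the interaction test called without that library all had a higher log2 fold change in hybrids. Dntt, Rgcc, Josd2, Cdt1 and Clec4g thus all lost their call for the difference between strains. Clec4g, a lectin of sinusoidal endothelium, had 5.54, 5.53 and 4.32 CPM at 6 months, against 3.17, 3.95 and 3.92 CPM at 1 month in hybrids, and 18.7 and 25.4 CPM in the C57BL/6 spleens at 6 months, against 2.37, 3.54 and 1.96 CPM at 1 month (difference -2.44 ± 0.38 SE, adjusted p = 0.0159). The erythroid sum was 32758 and 10243 CPM at 6 months, against 21777, 33595 and 7204 CPM at 1 month in C57BL/6 spleens, where the ages overlapped. This test called 15 genes without hybrid 6-month replicate 3, 2362 without hybrid 6-month replicate 2, and, in C57BL/6, 7 without 1-month replicate 1, 1483 without 1-month replicate 2, 51 without 1-month replicate 3, 2 without 6-month replicate 1 and 258 without its replicate 2. Leaving out hybrid 1-month replicate 1, 2 or 3 gave 16, 24 and 27, and hybrid 6-month replicate 1 gave 66. The C57BL/6 spleens of 6 and 1 months were also deposited in separate blocks of record numbers while the hybrids of both ages share one, so block and age cannot be told apart in that strain. C57BL/6 1-month replicates 1 and 2 are the libraries of that strain with pancreatic enzyme RNA.

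**Figure D5:**
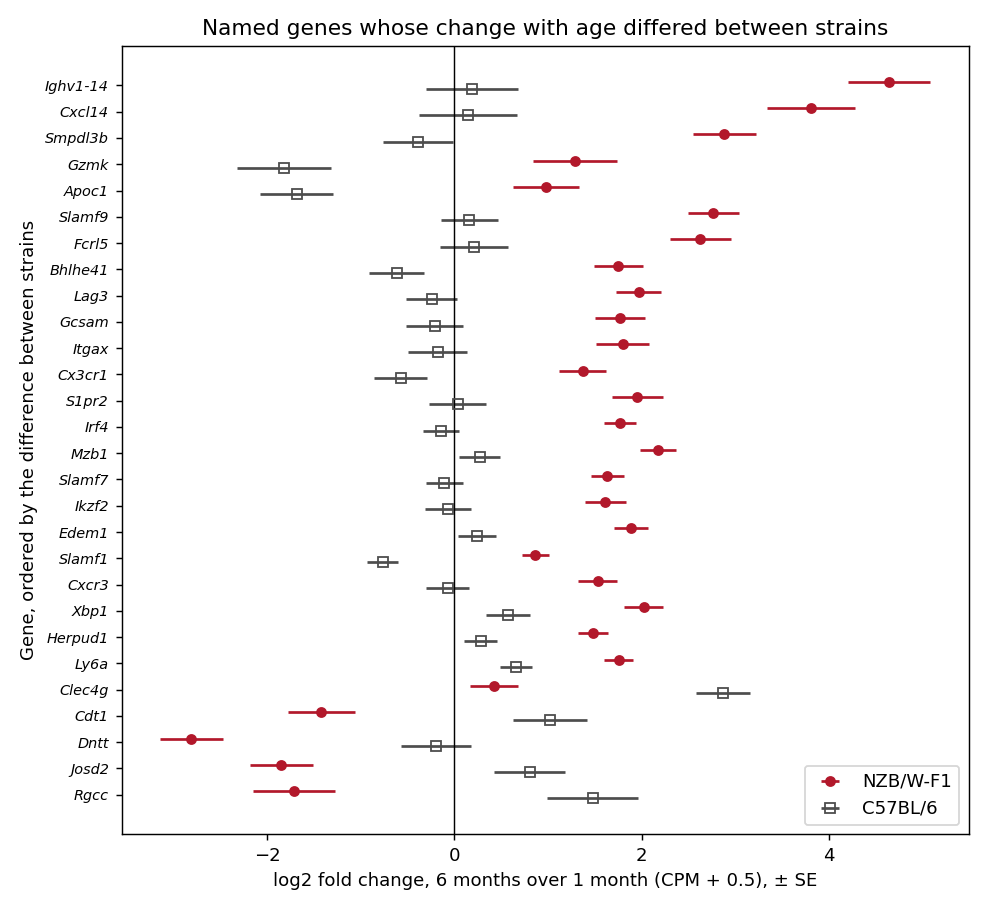
log2 fold change of 6 over 1 months with its SE in hybrid (filled) and C57BL/6 (open) spleen for the named genes whose change with age differed between the strains, ordered by that difference. Ighv1-14, Cxcl14 and Smpdl3b have the highest differences, and Rgcc, Josd2 and Dntt the lowest.

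Antibody RNA was also higher in the kidneys that carry the same animal codes. In hybrid kidney 465 of 14373 genes differed between 6 and 1 months (3.24%), 345 higher (2.4%) and 120 lower (0.835%). Without the kidney of 6-month replicate 3 they numbered 365, and without that of 6-month replicate 1 they numbered 305. Igkc had 273, 553 and 404 CPM in the 6-month kidneys, against 3.28, 3.78 and 4.27 CPM in the 1-month kidneys (log2 fold change 6.53 ± 0.35 SE, adjusted p = 3.96e-08). Ighg2c had 52.6, 137 and 115 CPM in the 6-month kidneys, against 0.126, 0.116 and 0.0454 CPM in the 1-month kidneys (log2 fold change 7.31 ± 0.65 SE, adjusted p = 1.22e-05). Jchain had 67.99, 133 and 141 CPM in the 6-month kidneys, against 1.26, 0.640 and 1.32 CPM in the 1-month kidneys (log2 fold change 6.14 ± 0.36 SE, adjusted p = 9.60e-08). Without the kidney of 6-month replicate 3 the adjusted p of these 3 genes was at most 0.000128. The kidney table was normalised separately, so levels are not set against those of spleen and the tissues were not tested against each other. Xbp1 had 152, 148 and 126 CPM in the 6-month kidneys, against 150.1, 152 and 131 CPM in the 1-month kidneys (log2 fold change -0.03 ± 0.14 SE, adjusted p = 0.951).

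The hybrid spleens of 3 months, before autoimmunity, show when some of these levels are seen. At that age Ighg3 stood at 1788, 899 and 1895 CPM, above every 1-month spleen and below every 6-month spleen. Cxcl14 was still at 0.739, 0.549 and 0.278 CPM in the 3-month spleens, and Rag1 was already at 0, 0.549 and 1.76 CPM. The erythroid sum at 3 months was 1555, 18466 and 4365 CPM, below the 1-month spleens in every animal. The second of these 3-month libraries is the one with 197753 CPM of pancreatic enzyme RNA, whose part in its values was not tested.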

How the data were processed

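RNA was sequenced from whole tissue, taken with TRIzol and made into TruSeq v2 libraries, per the labels' protocols. STAR 2.6, HTSeq, edgeR and the mm10 build are named per the submitters' processing notes. The deposited values are a signal, CPM scaled by the authors with trimmed-mean factors. The plan assumed plain CPM. Whole reads were recovered from every spleen column (100% of values within 0.01), and 15115 of 15122 genes matched GENCODE vM21 (GRCm38).

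The main test was limma 3.58.1 (R 4.3.3), trended, two-sided, fitted to log2(CPM + 0.5) with 6 spleen group means, over genes with at least 1 CPM in at least 2 libraries. Kidney was fitted alike, after 3 counter totals were dropped. edgeR 4.0.16 (quasi-likelihood, recovered reads) was the main alternative. Genes named are the 12 with the largest changes in each direction past the threshold, with a group mean of at least 5 CPM and no overlap, passing over predicted genes, pseudogenes and receptor segments, 5 each way for the interaction, and list members, except that an item this rule names is not reported here. Xist and the 3 V segments named were chosen after their values were seen. The members, lists and rule were chosen with earlier results of these data known. Each library carries an animal code of its own, and nothing says that animals were pooled. The scripts were tested on simulated data. Brain was not used here.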

Additional observations from a re-analysis of the deposited data

Results flagged for a closer look

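The change with age differed between the strains for 148 genes in the interaction test of limma, and 28 of these are named here. The differences given here are log2 fold changes, hybrid minus C57BL/6, each with an adjusted p under 0.05 with all libraries. Without hybrid 6-month replicate 3 the test called 15 genes, all higher in hybrids, so not all genes named here kept their call.
The change was higher in hybrids for genes of several cell types, with a difference of Ighv1-14 4.45, Cxcl14 3.66, Smpdl3b 3.28, Gzmk 3.11, Apoc1 2.66, Slamf9 2.61, Fcrl5 2.42, Bhlhe41 2.36 and Lag3 2.21.
Next came a difference of Gcsam 1.98, Itgax 1.98, Cx3cr1 1.94, S1pr2 1.92, Irf4 1.91, Mzb1 1.91, Slamf7 1.74 and Ikzf2 1.68.
The smallest were a difference of Edem1 1.64, Slamf1 1.63, Cxcr3 1.601, Xbp1 1.45, Herpud1 1.20 and Ly6a 1.10.
The change was lower in hybrids with a difference of Rgcc -3.19, Josd2 -2.66, Dntt -2.62, Cdt1 -2.44 and Clec4g -2.44. None of these lower genes was called without hybrid 6-month replicate 3.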

How the results depend on the processing

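Of the 1914 genes called between 6 and 1 months in hybrids, the count fell to 887 when only the compared groups were fitted, and to 403 without the 3 libraries with pancreatic enzyme reads and 489 in edgeR without 6-month replicate 3, both chosen after seeing the data. Leaving out 1 library in turn gave 491 to 3255. edgeR on recovered reads called 1621, of which 1590 were shared, and median-of-ratios scaling called 1886, with a median of all genes of -0.0062 in place of 0.045. In C57BL/6 the 28 calls became 17 with a mean of at least 5 CPM and 4 with only the compared groups, and 4 to 61 with 1 library left out. The 148 interaction calls became 88 in edgeR and 39 with only the 1- and 6-month groups, and 2 to 2362 with 1 library left out, while a mean of at least 5 CPM gave 186. In kidney the 465 calls ranged between 305 and 524 with 1 library left out, chosen after seeing the data. Where 1 C57BL/6 library of 6 months is left, it is assumed to vary like the other groups. Of the 131 genes followed by name, the call was lost for 16 in edgeR, 38 with only the compared groups, 6 with median-of-ratios scaling and 46 without 6-month replicate 3. The direction reversed for 1 uncalled gene: leaving out 1 library in turn, Tlx1 ranged between -0.37 and 0.0067. The filter at 1 CPM removes no gene, so a fit without it is identical.

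The replicate numbers do not pair the animals. Same-numbered hybrid libraries of the 2 ages had residual correlations of 0.23, -0.36 and 0.12, and 1 of the 3 older libraries correlated best with its own number. With the replicate number as a block, 1948 hybrid genes, 26 C57BL/6 genes and 31 interaction genes were called.

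Depth limits low genes, since 3 reads are 0.256 to 0.471 CPM. Reads were aligned to the C57BL/6 genome, and the effect of this on hybrid alleles was not tested. The cause of these changes with the processing was not tested.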

Other observations

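Ly6a, encoding Sca-1, a surface antigen of blood progenitors and of activated lymphocytes, had 334, 322 and 348 CPM at 6 months, against 109, 106 and 82.6 CPM at 1 month (log2 fold change 1.76 ± 0.15 SE, adjusted p = 1.95e-05), with no overlap between the ages, and it was called without 6-month replicate 3 (adjusted p = 1.79e-04). Zbtb20, a factor of long-lived plasma cells and B1 cells, had 94.4, 119 and 156 CPM at 6 months, against 35.5, 38.8 and 64.1 CPM at 1 month (log2 fold change 1.43 ± 0.25 SE, adjusted p = 0.00338). Il12b, encoding a chain shared by interleukin-12 and interleukin-23, had 3.92, 2.09 and 4.54 CPM at 6 months, against 0.724, 0.718 and 0.471 CPM at 1 month (log2 fold change 1.77 ± 0.33 SE, adjusted p = 0.0045). Slamf8, a receptor of macrophages, had 16.4, 10.6 and 11.5 CPM at 6 months, against 5.16, 7.18 and 5.97 CPM at 1 month (log2 fold change 1.00 ± 0.23 SE, adjusted p = 0.0166). Of 22 extracellular matrix genes 1 fell and none rose, beside 4.63% of all genes lower. It was the collagen gene Col5a1, with 22.8, 59.3 and 21.5 CPM at 6 months, against 99.03, 93.1 and 127 CPM at 1 month (log2 fold change -1.76 ± 0.44 SE, adjusted p = 0.023), and it was not called without 6-month replicate 3 (adjusted p = 0.123).

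Chil3, a chitinase-like protein of neutrophils and macrophages, had no read in any of the 9 hybrid spleens of 1, 3 and 6 months, against 170.4 and 293 CPM in C57BL/6 spleens of 6 months and 288, 142 and 139 CPM in those of 1 month. The gene's 3-month C57BL/6 spleens had 3.09 and 29.1 CPM. Reads were aligned to the C57BL/6 genome, and whether reads of the hybrids' own Chil3 alleles align to it was not tested. Adipocyte RNA varied between libraries of 1 group, with a sum of 357, 520.3 and 204 CPM at 6 months, against 42.96, 237 and 639.8 CPM at 1 month.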
